A study of Mus musculus with 7 samples.

Results

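The mitochondrial ribosomal protein genes of the embryonic mouse outflow tract (OFT) were followed in RNA-seq libraries from Gata6STOP/+ and wild-type (WT) embryos. The genes were taken by symbol, as every listed gene named Mrpl or Mrps followed by a number and, where present, the letter a, b or c. They came to 78 of the 14732 genes in the deposited table, 49 of the large subunit (Mrpl) and 29 of the small subunit (Mrps). All 78 were expressed, at moderate levels and in a closely similar order in the 7 libraries. None of the 78 differed between genotypes after correction for multiple testing, and most estimates lay slightly below 0. The lower values were most marked in 1 of the 4 Gata6STOP/+ libraries.

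The OFT is the embryonic vessel through which the heart empties and from which the roots of the aorta and pulmonary trunk and their valves form. Tissue was dissected at embryonic day (E) 11.5, and each library came from a pool of 4 pairs of OFTs. There were 3 WT pools (numbered 3, 4 and 5) and 4 Gata6STOP/+ pools (numbered 1, 3, 4 and 5). The design text speaks of 3 pools for each genotype, so it does not account for 1 of the Gata6STOP/+ libraries, and all 4 were used as labelled. Gata6STOP/+ embryos carry 1 allele of Gata6, which encodes a zinc-finger transcription factor, with a premature stop codon made by CRISPR-Cas9 in exon 2, and 1 intact allele. WT embryos carry 2 intact alleles. The allele is constitutive, so every cell of the embryo has it, and it goes back to 1 selected founder on a C57BL/6 background. A pool is whole tissue, in which fewer cells of a type and less RNA per cell cannot be told apart. Nothing in the labels ties pools to separate litters, so the P-values measure only the spread between pools.

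Mitochondria keep a ribosome of their own, which makes the few respiratory chain subunits that the mitochondrial genome encodes. Its ribosomal RNAs come from the mitochondrial genome, whereas all of its proteins are encoded in the nucleus, made in the cytosol and imported. The small subunit binds the mRNA and holds the decoding centre, and the large subunit joins the amino acids and carries the exit tunnel for the new protein. Many of the proteins descend from bacterial ribosomal proteins, and the rest were added during the evolution of mitochondria. Inherited defects in several of them cause childhood cardiomyopathy, since heart muscle depends on respiration.

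The libraries held 17783655 to 29035529 reads on listed genes in the WT pools and 24736761 to 34467710 in the Gata6STOP/+ pools. Behind the values of the members stood between 319 reads (the lowest member in any pool) and 3152 reads (the highest), a counting error of 5.60% and 1.78%. Gata6 itself stood at 315, 257 and 286 CPM, a read count scaled for library size, in WT pools 3, 4 and 5, and at 268, 203, 219 and 217 CPM in Gata6STOP/+ pools 1, 3, 4 and 5. The Gata6STOP/+ mean was 79.2% of the WT mean, and the groups overlapped, because Gata6STOP/+ pool 1 lay above WT pool 4. The log2 fold change of Gata6 was -0.34 ± 0.0987 (s.e.), with an adjusted P of 0.389 (limma, Benjamini-Hochberg). Its 95% interval, from -0.56 to -0.12, lay below 0 before correction for multiple testing. The paper reports Gata6 as significantly decreased by edgeR, and as lower by quantitative PCR. An exact two-sided permutation test on CPM gave P=0.0857: 3 of the 35 partitions of the pools, the observed one among them, were at least as extreme.

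The members took 0.290% of the WT libraries. Their WT means ran from 17.7 to 100 CPM, with a median of 34.3 CPM against 26.2 CPM over all listed genes, and 73 of the 78 lay between 20 and 60 CPM. The members stood between the 40.8th and the 84.7th percentile of all listed genes. The order of the members hardly differed between pools: Spearman's rho over the 78 genes was between 0.94 and 0.98 for every pair of pools, which describes these libraries and has no P-value, since genes are not replicates. The median coefficient of variation of a member over the WT pools was 5.31%, that of all listed genes was 8.43%, and that of the 6461 listed genes in the members' range of CPM was 6.64%. Over the Gata6STOP/+ pools the members' median was 7.93%, against 8.40% for all listed genes and 6.46% for those in the members' range.

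Longer RNAs give more reads, so single members were ranked by level per kilobase (kb) of RNA. Per kb of the union of annotated exons, the highest WT levels belonged to Mrpl12 at 65.4 ± 1.21 CPM per kb (mean ± s.d., n=3 pools), Mrps21 at 58.4 ± 0.891, Mrpl34 at 50.5 ± 4.43 and Mrpl54 at 48.1 ± 1.52. Mrpl12 builds the stalk of the large subunit that recruits translation factors, Mrps21 belongs to the small subunit, and Mrpl34 and Mrpl54 are small proteins of the large subunit. Mrpl34 and Mrpl54 did not differ beyond their spread. The lowest levels on the same scale belonged to Mrps10 at 3.22 ± 0.146 CPM per kb, Mrps35 at 3.88 ± 0.138, Mrps25 at 4.47 ± 0.227 and Mrpl48 at 4.49 ± 0.259, of which the last pair did not differ beyond their spread.

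This order depends on the length used. The exon union of a member had a median of 2394 bases, and the longest transcript tagged as principal in the annotation had a median of 1302 bases. Per kb of the principal transcript, Mrps10 stood at 25.5 ± 1.16 CPM per kb, rank 41 of 78 in place of rank 78. Mrpl42 then led at 103 ± 9.64 CPM per kb (rank 31 by exon union), followed by Mrps21 at 88.5 ± 1.35 and Mrpl12 at 76.1 ± 1.41. Spearman's rho between the orders by the 2 lengths was 0.68 over the 78 genes. Mrpl42 is named here because it changed place, and was chosen after its values were seen. On this scale the highest member was 21.2 times the lowest, and 54 of the 78 members lay within 2-fold of their median of 25.8 CPM per kb.

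**Figure D1:**
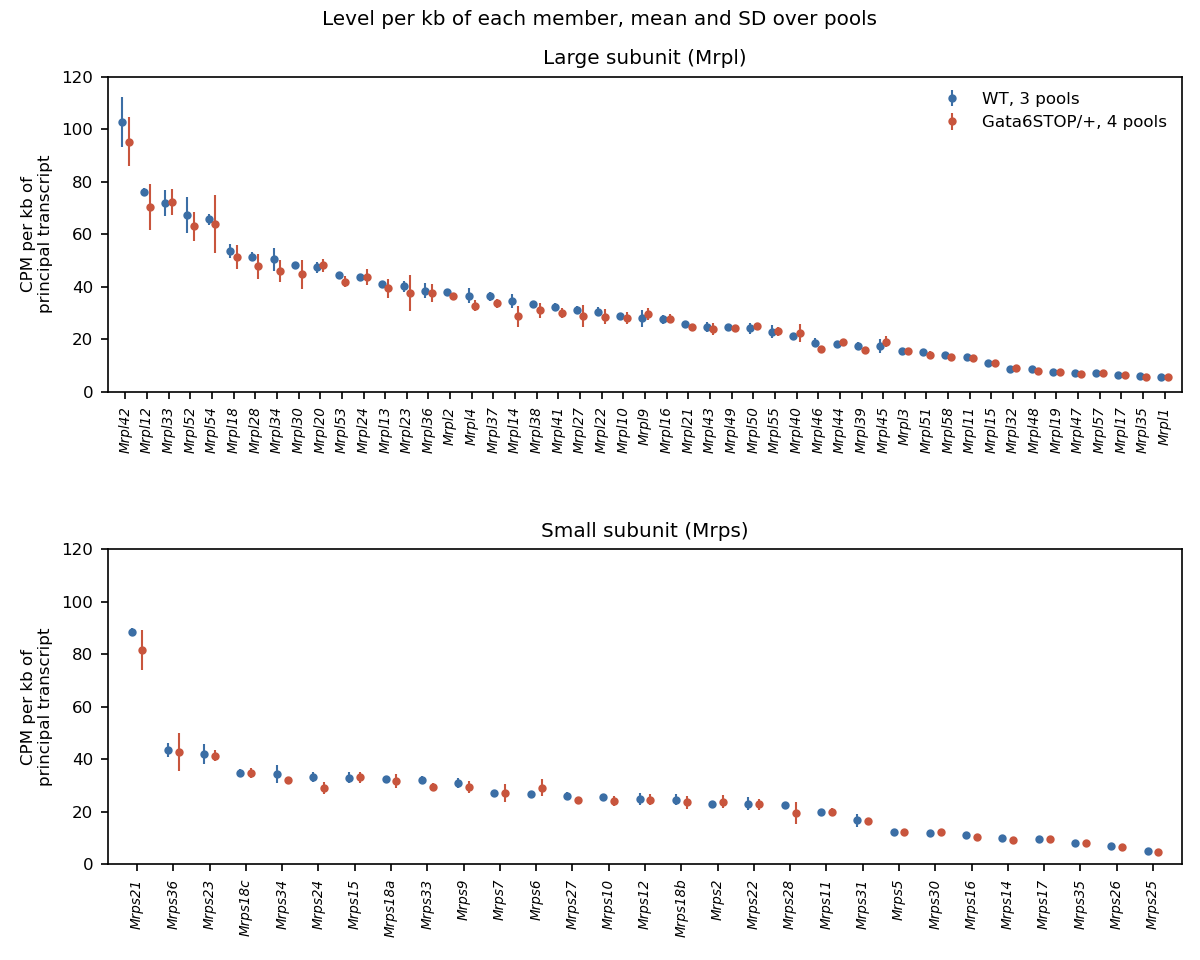
WT (blue, 3 pools) and Gata6STOP/+ (red, 4 pools) levels of the 49 large and 29 small subunit genes in CPM per kb of the principal transcript (y axis, from 0), in order of the WT mean. Points are means and bars are s.d. over pools. Mrpl42 leads the large subunit at 103 CPM per kb and Mrps21 the small subunit at 88.5 CPM per kb, and the 2 groups lie close to each other along the whole order.

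The promoters of the members were searched for 4 motifs, since the members share a name and an organelle but not a locus: they lie on 17 chromosomes. Nuclear respiratory factor 1 (NRF1) and ETS factors such as GABP are known regulators of genes for mitochondrial proteins, and YY1 is found at many promoters of this kind. RefSeq promoter entries (assembly GRCm38.p6, 250 bases before to 50 after the start) were at hand for 69 of the 78 members, as 75 promoters. Letters were matched exactly on both strands: GCGCA, any base and GCGC for NRF1, CCGGAAG for ETS factors, AAGATGGCG for YY1 and TATAAA for the TATA box.

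The NRF1 letters were in 13 of the 75 member promoters (17.3%), against 4.60% of all 32851 promoters and 9.33% of those of listed genes. The ETS letters were in 26 (34.7%), against 8.86% and 16.4%. The YY1 letters were in 8 (10.7%), against 1.40% and 2.75%. The TATA letters were in 5 (6.67%), against 13.6% and 7.44%. At least 1 of the first 3 was in 41 of the 75 (54.7%), against 13.6% of all promoters and 25.7% of those of listed genes. NRF1 letters were found at 10 large and 3 small subunit members, ETS letters at 15 and 11, and YY1 letters at 4 and 4. A match is a run of letters, not a measured binding site.

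The promoter stretches that follow are examples of these letters (in capitals) at members described in the text. None of the stretches shown overlaps an exon of the GENCODE M21 annotation. Each is read 5′ to 3′ on the strand of its gene, from the GRCm38.p6 sequence.
Mrpl12, NRF1 letters 81 bases before the start, chr11:120484536-120484585, plus strand: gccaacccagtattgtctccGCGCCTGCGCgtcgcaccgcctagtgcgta
Mrpl45, NRF1 letters 120 bases before the start, chr11:97315576-97315625, plus strand: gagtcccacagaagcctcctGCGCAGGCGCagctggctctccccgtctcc
Mrpl45, NRF1 letters 38 bases before the start, chr11:97315658-97315707, plus strand: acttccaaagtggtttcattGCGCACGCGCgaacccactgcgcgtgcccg
Mrpl34, ETS letters 37 bases before the start, chr8:71464869-71464915, plus strand: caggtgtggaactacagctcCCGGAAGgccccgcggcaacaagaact
Mrpl58, ETS letters 17 bases before the start, chr11:115403715-115403751, plus strand: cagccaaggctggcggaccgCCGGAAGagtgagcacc
Mrps22, ETS letters 11 bases before the start, chr9:98601680-98601710, minus strand: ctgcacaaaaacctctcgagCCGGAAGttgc
The letters of Mrpl12 match the NRF1 pattern when read on the other strand. The Mrpl58 and Mrps22 stretches end at the transcription start, so their ETS letters lie right before it.

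Members with and without the letters had similar fold changes between genotypes. The median log2 fold change (Gata6STOP/+ against WT) was -0.066 for the 13 members with NRF1 letters and -0.050 for the 56 without. It was -0.065 for the 26 with ETS letters and -0.034 for the 43 without, and -0.090 for the 8 with YY1 letters and -0.042 for the 61 without. These medians are a description and were not tested.

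Members often faced a neighbour. For 31 of the 78 (39.7%), another listed gene starts within 1000 bases on the opposite strand and runs the other way, against 16.1% of all listed genes and 15.6% of the listed protein-coding genes. The small subunit gene Mrps11 and the large subunit gene Mrpl46 form such a pair on chromosome 7, with starts 412 bases apart. Mrps12 shares its region with Sars2 (172 bases), the mitochondrial seryl-tRNA synthetase, and Mrpl43 with Twnk (779 bases), the helicase that unwinds mitochondrial DNA. Mrpl36 faces Ndufs6 and Mrpl47 faces Ndufb5, both of complex I of the respiratory chain. The start of Mrpl40 lies 175 bases from that of Hira, a histone chaperone gene. In the pairs of Mrps11, Mrpl43, Mrpl36 and Mrpl47 the genes overlap at their starts, and in those of Mrps12 and Mrpl40 they do not. The exons or introns of 24 members overlap another listed gene, 5 on the same strand (Mrps24, Mrpl53, Mrpl3, Mrps34 and Mrps6), where the counting could have split reads, so the values of those 5 are less certain.

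The comparison asks whether loss of 1 intact Gata6 allele goes with a different level of these mRNAs. By limma on log2(CPM + 0.5), 0 of the 78 members and 0 of the 14732 listed genes (0%) had a Benjamini-Hochberg adjusted P under 0.05. At an unadjusted P under 0.05 there were 3 members, all lower, against 1187 listed genes (8.06%), of which 572 were lower (3.88%). The members' adjusted P ran from 0.579 to 0.998. None of the 78 was called by any of the other 18 fits, which included edgeR and DESeq2 on recovered reads and fits without each pool in turn, and the smallest adjusted P of a member over all 19 fits was 0.449, for Mrpl14. In the same table, edgeR's likelihood ratio test called 105 genes (0.713%), DESeq2 88 (0.597%) and edgeR's quasi-likelihood test 0.

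The estimates were narrow enough to bound the differences. The standard errors of the members' log2 fold changes ran from 0.0593 to 0.144. The log2 fold changes themselves ran from -0.27 (Mrpl14) to 0.14 (Mrpl45). The 95% interval lay wholly between -0.5 and 0.5 for 76 of the 78 members, and wholly between -0.3 and 0.3 for 58. The interval that reached farthest down was that of Mrps28, to -0.55, and the one that reached farthest up was that of Mrpl45, to 0.40.

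**Figure D2:**
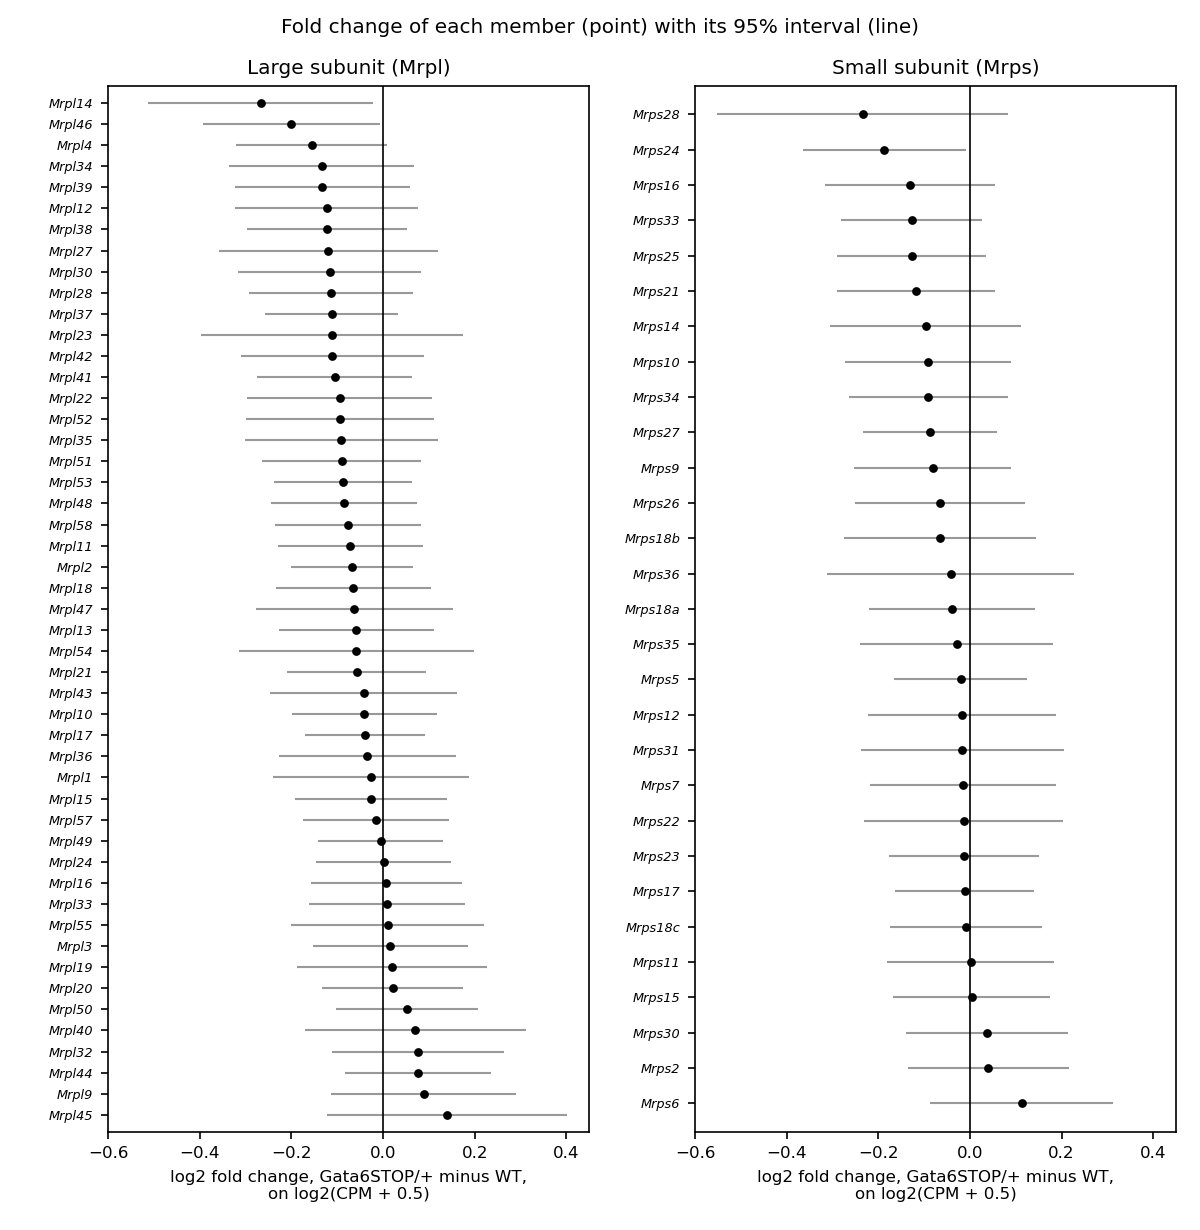
Log2 fold change of each member (points; x axis, Gata6STOP/+ minus WT on log2(CPM + 0.5)) with its 95% limma interval (lines), large subunit at left and small subunit at right, sorted by fold change. Most points lie just below 0, from -0.27 for Mrpl14 to 0.14 for Mrpl45, and the intervals of Mrpl14, Mrpl46 and Mrps24 alone do not reach 0, before correction for multiple testing.

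Of the 78 members, 60 had a log2 fold change below 0 and 18 above, with a median of -0.058. Over all listed genes 50.2% lay below 0 and the median was -0.0007. Without Gata6STOP/+ pool 1, 46 of the 78 members lay below 0, against 49.8% of all listed genes, and the median was -0.016. The groups did not overlap for 1 member, Mrpl14, whereas they did not overlap for 8.47% of all listed genes (4.16% lower and 4.31% higher). Without Gata6STOP/+ pool 3, the pool with the highest member levels, 16 of the 78 (20.5%) did not overlap, all lower, against 14.6% of all listed genes in either direction and 7.36% lower. Without any other single pool the number was between 2 and 10, against 11.1% to 19.1% of all listed genes in either direction. Counting lower members only, the shares were 12.8% without WT pool 3, 10.3% without WT pool 5 and 7.69% without Gata6STOP/+ pool 4. Over all listed genes these lower shares were 6.98%, 7.97% and 6.77%. Without WT pool 4 and Gata6STOP/+ pools 1 and 5, the members' lower shares were 5.13%, 1.28% and 1.28%, against 10.1%, 6.18% and 5.29%.

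Mrpl14 (chr17:45686322-45698495, plus strand, GRCm38) encodes a protein at the face of the large subunit that meets the small one, the site where the assembly factor Malsu1 is known to bind. It stood at 24.1, 20.8 and 22.01 CPM in WT pools 3, 4 and 5, and at 15.4, 20.6, 20.6 and 17.6 CPM in Gata6STOP/+ pools 1, 3, 4 and 5. All Gata6STOP/+ pools lay below all WT pools, but pools 3 and 4 lay close to WT pool 4. The log2 fold change was -0.27 ± 0.111 (s.e.; adjusted P=0.579, limma, Benjamini-Hochberg), -0.18 without Gata6STOP/+ pool 1, and an exact two-sided permutation test on CPM gave P=0.114.

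Mrps24 belongs to the part of the small subunit where the mRNA enters. Its values were 33.5, 31.0 and 34.4 CPM in the WT pools and 26.7, 28.8, 32.2 and 27.9 CPM in the Gata6STOP/+ pools, and Gata6STOP/+ pool 4 lay within the WT range. Mrpl46, a mitochondria-specific protein of the large subunit, stood at 19.2, 21.05 and 23.3 CPM in the WT pools and at 17.7, 17.9, 19.6 and 18.1 CPM in the Gata6STOP/+ pools. Here Gata6STOP/+ pool 4 lay above WT pool 3. Its neighbour Mrps11, which starts 412 bases away, had a log2 fold change of 0.0021. Adjusted P was 0.595 for Mrps24 and 0.598 for Mrpl46 (limma, Benjamini-Hochberg).

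Mrps28 had a log2 fold change of -0.23 ± 0.144 (s.e.). It stood at 17.5, 17.9 and 17.9 CPM in the WT pools, and at 11.3, 19.1, 15.8 and 14.8 CPM in the Gata6STOP/+ pools. The Gata6STOP/+ pools thus ranged from below to above the WT pools, and without pool 1 the log2 fold change was -0.10. Mrpl4 (-0.16), Mrps33 (-0.13), Mrps25 (-0.13) and Mrpl37 (-0.11) complete the 8 members with the smallest unadjusted P, all below 0 and all with overlapping groups.

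The stalk of the large subunit, which calls in translation factors, is built on Mrpl10 and Mrpl11 and carries copies of Mrpl12. Mrpl12 stood at 102, 101 and 98.1 CPM in the WT pools and at 76.5, 101, 101 and 91.6 CPM in the Gata6STOP/+ pools. Of these, pools 1 and 5 lay below the WT range and the other two within it. Its log2 fold change was -0.12 ± 0.0908 (s.e.), and -0.036 without pool 1. Mrpl10 and Mrpl11 had log2 fold changes of -0.041 and -0.072.

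Mrps12, a protein of the decoding centre, had a log2 fold change of -0.017, with means of 21.9 ± 2.07 CPM in WT (s.d., n=3) and 21.6 ± 1.77 CPM in Gata6STOP/+ OFTs (s.d., n=4). Mrpl58, a peptidyl-tRNA hydrolase that became part of the large subunit, had a log2 fold change of -0.077. Mrps18a, Mrps18b and Mrps18c are descendants of a single bacterial protein and occupy different places in the ribosome. Their log2 fold changes were -0.039, -0.065 and -0.0084, each within its standard error of 0.

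Mrpl45, which sits at the exit tunnel and helps to hold the ribosome at the inner membrane, had the highest estimate of all members. It stood at 34.7, 47.8 and 44.1 CPM in WT pools 3, 4 and 5, and at 38.5, 50.1, 48.3 and 48.6 CPM in Gata6STOP/+ pools 1, 3, 4 and 5. Gata6STOP/+ pools 3, 4 and 5 thus lay above all WT pools, and pool 1 lay within the WT range. The log2 fold change was 0.14 ± 0.119 (s.e.; adjusted P=0.806, limma, Benjamini-Hochberg), and 0.23 without pool 1, where the groups no longer overlapped.

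Mrpl3, Mrpl44, Mrps22 and Mrps14 are linked to inherited cardiomyopathy in people. Mrpl3 had a log2 fold change of 0.016 (95% interval -0.15 to 0.19), Mrpl44 of 0.076 (-0.08 to 0.24), Mrps22 of -0.014 (-0.23 to 0.20) and Mrps14 of -0.097 (-0.30 to 0.11). Mrpl40, which lies in the interval deleted in DiGeorge syndrome, a cause of OFT defects, had a log2 fold change of 0.070 (-0.17 to 0.31). It stood at 25.9, 28.3 and 26.8 CPM in the WT pools and at 23.9, 33.9, 30.0 and 26.7 CPM in the Gata6STOP/+ pools, so that the Gata6STOP/+ pools lay on both sides of the WT range.

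Both subunits had medians slightly below 0. The median log2 fold change was -0.063 over the 49 large subunit genes, of which 36 lay below 0, and -0.039 over the 29 small subunit genes, of which 24 lay below 0. The medians differed by -0.024 (large minus small). Without Gata6STOP/+ pool 1 they were -0.034 and -0.011. Leaving out 1 pool at a time moved the difference between -0.028 and 0.013, so its sign was not fixed by these pools.

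Names and structures disagree for 3 members. Mrps18a and Mrps30 are built into the large subunit, and Mrps36 is a subunit of the 2-oxoglutarate dehydrogenase complex rather than a ribosomal protein. By structure, 51 large subunit genes had a median of -0.059 and 26 small subunit genes a median of -0.047. Mrps30 had a log2 fold change of 0.038 and Mrps36 one of -0.042. A processed copy, Mrps36-ps1, was listed at 0.692 to 3.40 CPM, and reads may have been split between the gene and the copy.

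Members were also set apart by the kind of name their proteins carry. By the current names of the ribosomal proteins, assigned by hand from general knowledge, 46 members are named for a bacterial counterpart and 31 as specific to mitochondria. Mrps18a and Mrps18b have names of the latter kind despite their descent. The median log2 fold change was -0.049 for the former, of which 33 lay below 0, and -0.066 for the latter, of which 26 lay below 0. All 10 genes of the small subunit by structure with mitochondria-specific names lay below 0, between -0.13 and -0.013, and without Gata6STOP/+ pool 1 this held for 7 of the 10.

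The summed level of the 49 large subunit genes was 1920 ± 37.1 CPM in WT (s.d., n=3) and 1853 ± 123 CPM in Gata6STOP/+ OFTs (s.d., n=4). That of the 29 small subunit genes was 985 ± 10.7 and 954 ± 61.5 CPM. Per kb of exon union, the large subunit genes together stood at 2.12, 2.13 and 2.13 times the small subunit genes in WT pools 3, 4 and 5. The same ratio was 2.11, 2.09, 2.15 and 2.14 in Gata6STOP/+ pools 1, 3, 4 and 5, on both sides of the WT values. The ratio was 2.09 in WT and 2.07 in Gata6STOP/+ pools (means) per kb of the principal transcript. The ratio mainly counts how many genes are summed: the median WT level per kb of the principal transcript was 27.9 CPM for a large and 24.8 CPM for a small subunit gene.

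**Figure D3:**
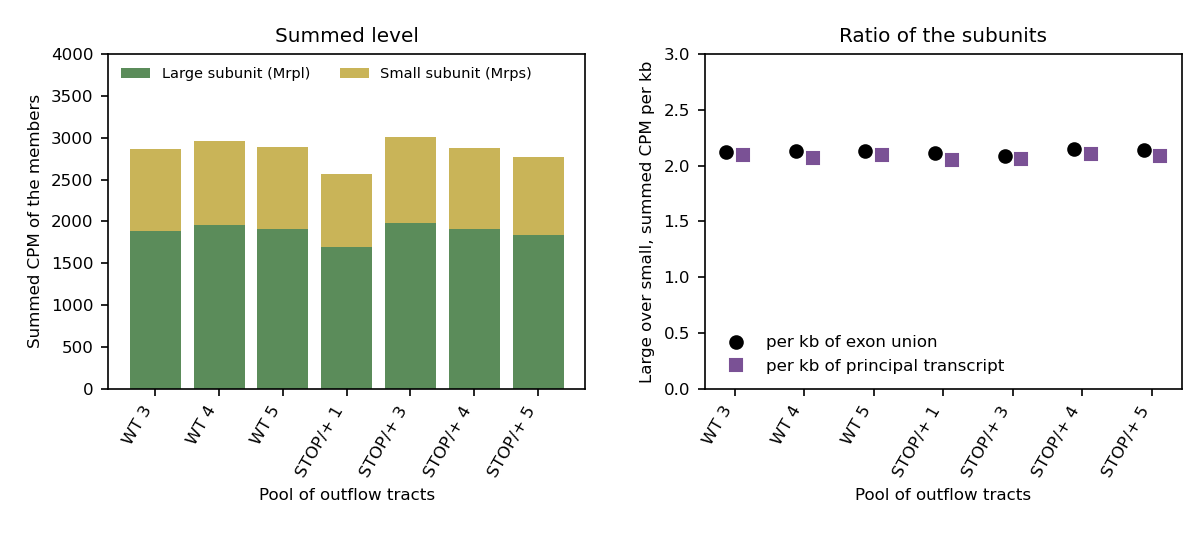
Left, summed CPM of the large (green) and small (yellow) subunit genes in each pool, stacked from 0. Right, the ratio of large to small subunit in summed CPM per kb, by exon union (circles) and by principal transcript (squares). Gata6STOP/+ pool 1 has the lowest sum, at 2570 CPM, while its ratio of 2.11 by exon union lies among those of the other pools.

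Summed over the 78 members, WT pools 3, 4 and 5 stood at 2867, 2959 and 2890 CPM. Gata6STOP/+ pools 1, 3, 4 and 5 stood at 2570, 3004, 2882 and 2773 CPM. Pool 3 lay above every WT pool, pool 4 within the WT range, and pools 1 and 5 below it. The Gata6STOP/+ mean was 96.6% of the WT mean, and 99.3% without pool 1. Set against each member's WT mean, the median log2 deviation of the members was -0.17 in Gata6STOP/+ pool 1, 0.047 in pool 3, -0.0084 in pool 4 and -0.060 in pool 5. In the WT pools it was between -0.019 and 0.020.

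Gata6STOP/+ pool 1 was the lowest of the 7 pools for 49 of the 78 members (62.8%), against 19.7% of all listed genes. This held for 31 of the 49 large and 18 of the 29 small subunit genes. In this pool 56 members lay below all WT pools, against 29.5% of all listed genes, and 2 lay above them, against 29.0%. The lowest deviation was that of Mrps28, at -0.63, and Mrpl50 had the highest, at 0.11. In Gata6STOP/+ pool 3, by contrast, 7 members lay below all WT pools, against 24.8% of all listed genes, and 30 lay above them, against 26.1%. In pool 5, 34 members lay below all WT pools, against 24.8%, and 7 above, against 24.4%. In pool 4, 24 members lay below, against 22.7%, and 14 above, against 22.7%. Mrpl50 was chosen after its values were seen.

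**Figure D4:**
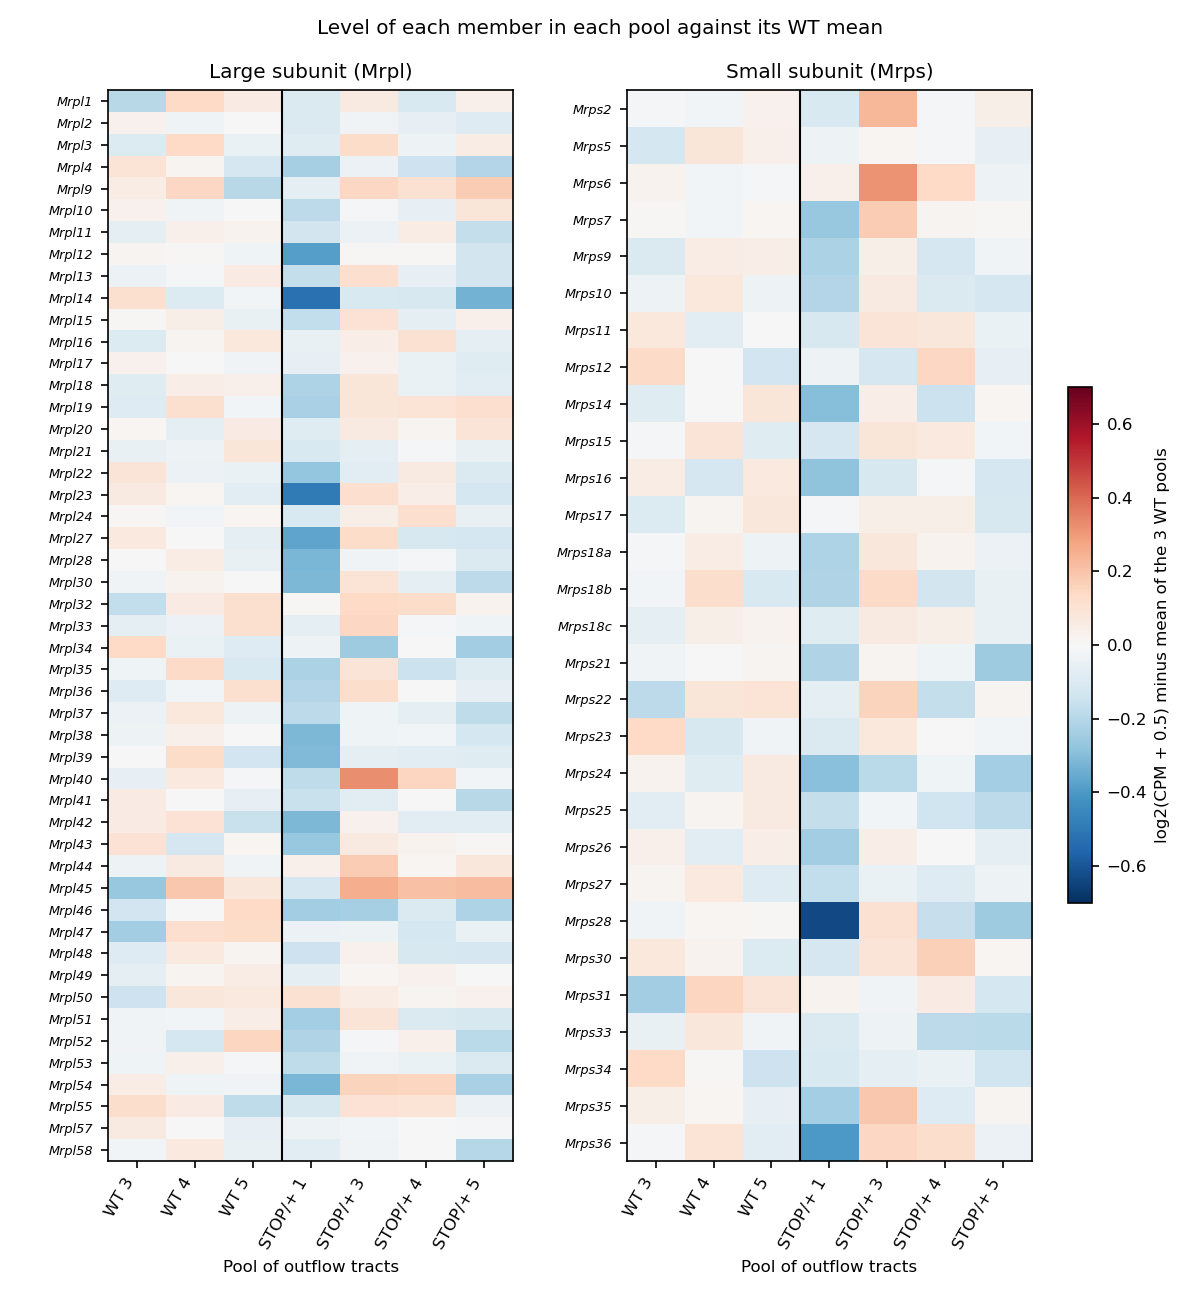
Level of each member (rows) in each pool (columns) as log2(CPM + 0.5) minus the mean of the 3 WT pools, from blue (lower) to red (higher); the black line parts WT from Gata6STOP/+ pools. The column of Gata6STOP/+ pool 1 is blue for 73 of the 78 members, from -0.63 for Mrps28, and the column of pool 3 is mostly pale or red.

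By median log2 deviation, though not by summed CPM in every list, the Gata6STOP/+ pools stood in the same order in some lists. With pool 1 lowest and pool 3 highest, these were translation factors, assembly factors, aminoacyl-tRNA synthetases and transcription and RNA stability genes. The 5 mitochondrial ribosome proteins that carry other names had pool 1 lowest (-0.14) but pool 4 highest (0.082), with 0.076 in pool 3. The 13 regulators of mitochondrial gene expression had pool 1 lowest (0.013) but pool 5 highest (0.050). The order of the members was found over a wider range in 2 further lists. The 75 listed nuclear-encoded subunits of oxidative phosphorylation (OXPHOS) had a median log2 deviation of -0.30 in Gata6STOP/+ pool 1, 0.019 in pool 3, -0.045 in pool 4 and -0.17 in pool 5. The 10 cardiomyocyte markers had -0.42, 0.093, 0.011 and -0.11, also in that order. Their summed level was 22300.2 to 24985 CPM in the WT pools, and 18229 CPM in Gata6STOP/+ pool 1 against 22669 to 25785 CPM in the other Gata6STOP/+ pools. All 10 (Tnnt2, Tnni1, Actc1, Myh6, Myh7, Myl4, Myl7, Nppa, Ryr2 and Ttn) were listed above 0 in every pool. In log2 fold change 7 of the 10 lay below 0, from -2.27 to 0.10 over the 10, with a median of -0.079. Without Gata6STOP/+ pool 1, 4 of the 10 lay below 0 and the median was 0.027. By limma 0 were called, and 2 of the 10 (20%) had an unadjusted P under 0.05, against 8.06% of all listed genes. The 13 mRNAs of the mitochondrial genome went otherwise, with a median deviation of 0.24 in pool 1 and of 0.071 to 0.26 in the other Gata6STOP/+ pools, against 0.22 in WT pool 4 and -0.12 and -0.067 in WT pools 3 and 5. The part of heart muscle content in the members' values was not tested.

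**Figure D5:**
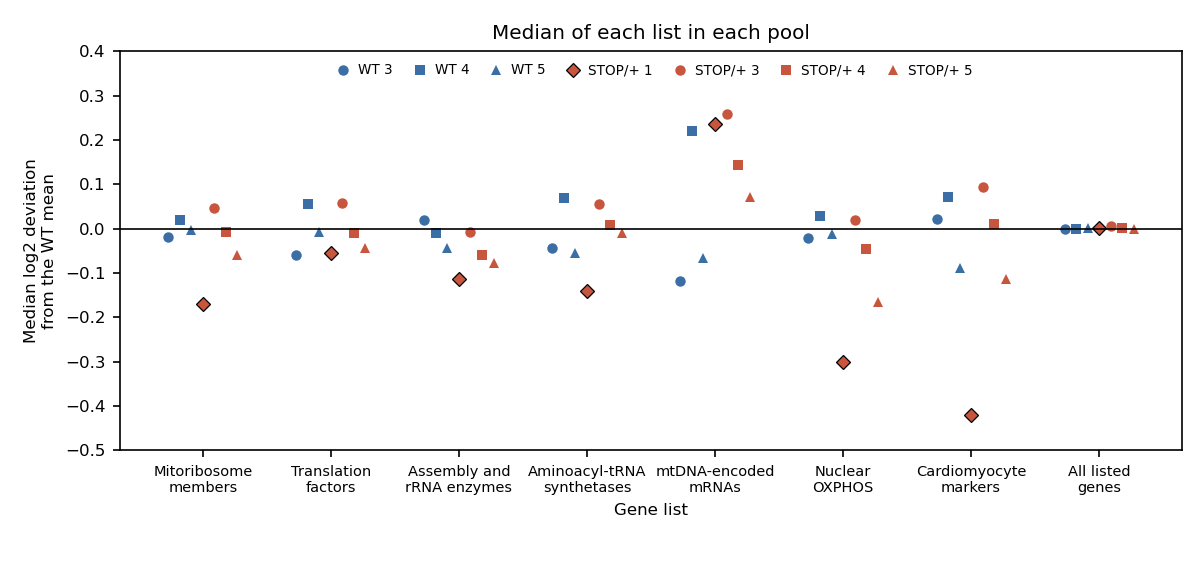
Median log2 deviation from the WT mean (y axis) of the genes of each list (x axis) in each pool, WT in blue and Gata6STOP/+ in red; the outlined diamond is Gata6STOP/+ pool 1. Pool 1 lies lowest for the members at -0.17, for nuclear OXPHOS genes at -0.30 and for cardiomyocyte markers at -0.42, while all listed genes stay at 0 in every pool.

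Markers of other cell types are given by their summed level. The 7 primitive erythroid markers had a summed level of 2287 to 5521 CPM in the WT pools and 2664 to 6944 CPM in the Gata6STOP/+ pools, with the highest value in Gata6STOP/+ pool 5. The 8 endothelial and endocardial markers ran from 776 to 1069 CPM in the WT pools and from 853 to 1044 CPM in the Gata6STOP/+ pools. The 5 smooth muscle markers ran from 2480 to 2939 and from 2592 to 3454 CPM, lowest of the Gata6STOP/+ pools in pool 1. The 3 second heart field markers listed (Isl1 and Tbx1 among them) ran from 40.7 to 51.6 CPM in the WT pools and from 53.0 to 80.2 CPM in the Gata6STOP/+ pools, highest in pool 1, and the 4 neural crest and glial markers from 78.9 to 115 and from 67.6 to 79.3 CPM. The 2 epithelial markers (Krt8 and Krt18) ran from 69.9 to 110.04 CPM in the WT pools and from 83.5 to 117 CPM in the Gata6STOP/+ pools, which stood in the same order as for the members, and the 5 macrophage markers from 41.9 to 53.4 and from 31.9 to 71.7 CPM. The part of these cell types in the members' values was not tested. Among the markers set down, Foxd3 (neural crest), Fgf8 (second heart field) and Cdh1, Epcam and Foxa2 (epithelium) were not among the listed genes.

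Fold changes also went with gene length. Over all listed genes the median log2 fold change was -0.062 for the 606 genes with up to 1000 exon bases and 0.027 for the 6123 genes with over 5000. Without Gata6STOP/+ pool 1 these medians were -0.040 and 0.016. The members were shorter than most genes, with a median of 2394 exon bases against 4326. The 9 members with up to 1000 exon bases had a median of -0.12, and the 14 with over 5000 had one of -0.028. The 3 classes between them held from 16 to 22 members each and ended at 2000, 3000 and 5000 bases. Their members' medians were -0.038, -0.037 and -0.072, against -0.047, -0.027 and -0.0096 for all listed genes of the same classes. The members' median lay below that of all listed genes in every class except the one ending at 2000 bases. The part of length in the members' values was not tested.

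The genes that work with the mitochondrial ribosome were taken from lists set by role. Of the 5 ribosomal proteins that carry other names, 2 lay below 0 and 3 above, and 0 were called (limma, Benjamini-Hochberg, as for all lists here). Aurkaip1, a small subunit protein, stood at 34.7, 39.99 and 41.2 CPM in the WT pools and at 34.97, 36.8, 32.3 and 33.4 CPM in the Gata6STOP/+ pools, and the groups overlapped. Ptcd3, of the small subunit too, had a log2 fold change of 0.09.

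Of 28 listed assembly factors and rRNA enzymes, 20 lay below 0, with a median log2 fold change of -0.069, and 0 were called. Malsu1, which binds Mrpl14 on the large subunit and keeps the subunits apart, had the smallest P of the list. It stood at 14.3, 14.9 and 17.6 CPM in the WT pools, and at 12.2, 12.2, 10.98 and 13.1 CPM in the Gata6STOP/+ pools. All Gata6STOP/+ pools lay below all WT pools, and its log2 fold change was -0.35 ± 0.103 (s.e.; adjusted P=0.393, limma, Benjamini-Hochberg). Fastkd2, needed for the large ribosomal RNA, had a log2 fold change of 0.17 with overlapping groups.

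Of 13 listed translation factors, 7 lay below 0, with a median of -0.031. The elongation factor gene Tsfm had a log2 fold change of -0.18, and Oxa1l, which inserts new proteins into the inner membrane, one of -0.099. Of the 20 mitochondrial aminoacyl-tRNA synthetases, 10 lay below 0 and 10 above. Lars2, for leucine, stood at 441, 374 and 498 CPM in the WT pools and at 380, 285, 363 and 328 CPM in the Gata6STOP/+ pools, of which pool 1 lay above WT pool 4. Its log2 fold change was -0.37 ± 0.113 (s.e.; adjusted P=0.419, limma, Benjamini-Hochberg), and that of Cars2, for cysteine, was -0.21.

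Of 19 listed genes of mitochondrial transcription and RNA stability, 8 lay below 0, with a median of 0.011. Hsd17b10, which is part of mitochondrial RNase P, had a log2 fold change of -0.16 and groups that did not overlap, and Slirp, which binds mitochondrial mRNAs, one of -0.17. The mRNAs that the ribosome translates lay above 0 for 11 of 13, with a median of 0.18. Among them mt-Nd3 stood at 165, 229 and 161 CPM in the WT pools and at 216, 261, 208 and 256 CPM in the Gata6STOP/+ pools, on both sides of WT pool 4. Next by P was mt-Nd2, with a log2 fold change of 0.24. Of the nuclear OXPHOS genes 74 of 75 lay below 0, with a median of -0.13, and -0.061 without Gata6STOP/+ pool 1. Atp5k, of ATP synthase, had a log2 fold change of -0.30, and Uqcr10, of complex III, one of -0.27. The 13 listed regulators of these genes, such as the NRF1 and GABP genes themselves, had a median log2 fold change of 0.013, 6 below and 7 above 0, with 0.11 for Gabpa and -0.11 for Esrra. At an unadjusted P under 0.05, which 8.06% of all listed genes passed, there were 14 of the 75 nuclear OXPHOS genes (18.7%) and 1 gene each among the assembly factors, the synthetases, the transcription and RNA stability genes and the mitochondrial mRNAs (3.57% to 7.69% of each list). In none of these lists was a gene called by any of the 19 fits, edgeR and DESeq2 among them.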

How the data were processed

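Poly-A RNA of 7 OFT pools was sequenced over 60 bases from 1 end with a kit that keeps the strand. The authors trimmed adapters with Cutadapt, quantified genes with RSEM on GRCm38, kept genes with 1 CPM in at least 3 samples and scaled by TMM in edgeR, and the deposited values are these CPM, 1 column per pool.

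The members and gene lists were chosen with earlier results of these data known. All listed genes were fitted with limma 3.58.1 (trend, two-sided, no covariate, R 4.3.3) on log2(CPM + 0.5), a scale that understates changes of low genes, with Benjamini-Hochberg adjustment over 14732 genes and a threshold of 0.05. Every value came out as a whole number of reads (100% of values, within 0.001), and edgeR 4.0.16 and DESeq2 1.42.0 were run on these reads as alternatives. In a simulation of 14732 genes with a change put into 200, the limma fit called 140 of the 200 and 11 unchanged genes. It found 58.3% of log2 changes of 0.5 and 80.8% of log2 changes of 1. In the real pools the same fit called 0 of 14732 genes. Whether the simulated shares hold for the real pools was not tested.

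Exon lengths and positions come from GENCODE M21 (GRCm38), in which all 78 members were found. Members named in the text are the 8 with the smallest P, the 4 highest and 4 lowest per kb of exon union, and those fixed for their role, and 2 genes of each other list by smallest P. Other members were named after seeing the data: Mrpl42 and Mrpl50 for their values, and those with facing or overlapping neighbours for their position.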

Additional observations from a re-analysis of the deposited data

Results flagged for a closer look

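In a search of the 4 Gata6STOP/+ pools for a single value far from the rest (Dixon's test at the 95% level, which chance flags in about 1 of 20 groups), 1 of 36 values tested stood out. Mrpl45, a large subunit protein at the exit tunnel, stood at 38.5 CPM in Gata6STOP/+ pool 1 and at 48.3 to 50.1 CPM in the other 3 pools. The gap to the nearest pool was 0.846 of the whole range. The WT pools, at 34.7 to 47.8 CPM, held the value of pool 1 within their range.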

How the results depend on the processing

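No member was called under any alternative, and the smallest adjusted P of any of the 30 named members over all alternatives was 0.449. The count of listed genes called was 0 with limma, 1 with 0.1 as the constant, 105 with edgeR's likelihood ratio test, 88 with DESeq2 and 0 to 13 when 1 pool was left out (13 without WT pool 4). The correlation of same-numbered deviations from the group means was -0.046, -0.27 and -0.017 for numbers 3, 4 and 5. Between differently numbered pools it was -0.15 to 0.22. With so few pools, whose deviations sum to 0 within each group, this check cannot tell whether the replicate numbers pair the pools. With the replicate block the count was 14, with edgeR's quasi-likelihood test and the block 13, and with its likelihood ratio test and the block 118. Gata6STOP/+ pool 1 has no partner, so the block removes its weight, and its limma estimates are those without that pool. Under the block by limma, quasi-likelihood and likelihood ratio, 7 of the 30 named members changed sign: Mrpl54 (0.028, 0.030 and 0.030), Mrps35 (0.040, 0.040 and 0.040), Mrps18a (0.020, 0.020 and 0.020), Mrps18c (0.017, 0.017 and 0.017), Mrpl10 (0.0064, 0.0064 and 0.0063), Mrps22 (0.0039, 0.0024 and 0.0026) and Mrps36 (0.077, 0.078 and 0.078). The crossing of 0 was by less than a standard error in each.

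Leaving out 1 pool moved the median log2 fold change of the members between -0.090 and -0.016, that of the large subunit between -0.086 and -0.034, that of the small subunit between -0.099 and -0.011, and their difference between -0.028 and 0.013. The number of members whose groups did not overlap was 2 to 16 (2.56% to 20.5%), against 11.1% to 19.1% of all listed genes. The number of members below 0 was 46 to 69 of the 78. Over all listed genes 50.2% lay below 0 with every pool, and 49.8% without Gata6STOP/+ pool 1. Among the named members, the ranges crossed 0 for Mrpl54 (-0.13 to 0.028), Mrps35 (-0.10 to 0.040), Mrps18a (-0.079 to 0.020), Mrps18c (-0.041 to 0.017), Mrpl10 (-0.083 to 0.0064), Mrps12 (-0.084 to 0.050), Mrpl3 (-0.031 to 0.087), Mrps22 (-0.10 to 0.036), Mrpl40 (-0.014 to 0.15), Mrps30 (-0.010 to 0.089) and Mrps36 (-0.10 to 0.077). The ratio of large to small subunit was 2.13 in WT and 2.12 in Gata6STOP/+ pools per kb of exon union, 2.35 and 2.35 with subunits by structure, 1.96 and 1.96 per kb of the longest transcript, and 2.09 and 2.07 per kb of the principal transcript. The lengths by principal transcript were added after seeing the data. The causes of these changes were not tested.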
